A study of Rattus norvegicus with 18 samples.

Results

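The T cell receptor complex and the proteins that carry its first signals were followed in peripheral blood mononuclear cells of rats fed 3 diets. The genes were 10: Cd3e, Cd3d and Cd3g of the receptor complex, the co-receptors Cd4 and Cd8a, the surface molecules Cd2 and Cd5, and the intracellular signalling genes Lck, Zap70 and Lat. The list was drawn up with earlier results of these data known. A probe belonged to a gene when the array's own gene name equalled it, ignoring case and the ending that marks a predicted gene. That rule found 9 of the 10 genes with 1 probe each, so 9 of the 41012 probes on the array, which carry 35605 distinct gene or transcript names. No probe carried the name Lck. A probe that the array files describe as the LCK tyrosine kinase, under a transcript identifier, is given beside the others and enters none of their counts.

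The rats were male Wistar, 2 months old when the diets began, kept on them for 4 months and fasted for 14 h before blood was taken. Fat made up 60% of the energy of the high-fat diet (HFD), protein 20% and carbohydrate 20%. In the high-protein diet (HPD), fat was 10%, protein 45%, mainly casein, and carbohydrate 45%. The low-fat diet (LFD), the control, held 10%, 20% and 70%. Rats on HFD and on HPD were given the same energy as the LFD rats ate. Each diet had 6 rats and each rat 1 two-colour array, with the rat's RNA in Cy5 and a common pool in Cy3, in 1 dye orientation throughout. The value of a gene is log2 of the Cy5 over the Cy3 processed signal, so 0 is the level in the pool. One HPD array, replicate 7, has a title that names HFD and a source name that says HPD. It was counted as HPD, and results are also given without it.

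T cells recognise antigen through a receptor whose variable chains signal only through the invariant CD3 chains beside them. When the receptor and a co-receptor, CD4 or CD8, bind the same peptide complex, the kinase LCK, held by the co-receptor, phosphorylates the CD3 and zeta chains. ZAP70 docks there and phosphorylates the adaptor LAT, on which the complexes that raise calcium and activate ERK and NF-kB assemble. CD2 is an adhesion and costimulatory molecule of T and NK cells, and CD5 dampens receptor signalling. In the rat CD4 is also carried by monocytes and CD8 alpha by many NK cells, so these markers are less T cell specific in blood than the CD3 chains.

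The stretches before the start sites of 5 of these genes are shown because their levels moved together across the rats most closely (Cd3d with Cd3g, and Cd2 with Cd8a) or because they sit in the same gene cluster (Cd3e). Promoter entries of RefSeq on the GRCr8 assembly matched 9 of the 10 names, all but Cd4. Each line holds the 250 bases before the annotated start, read 5′ to 3′ on the gene's strand. Cd3g lies at chr8:54183919-54184168 on the minus strand and Cd3d at chr8:54185269-54185518 on the plus strand, so they start in opposite directions with 1100 bases between the windows. Cd3e follows at chr8:54211771-54212020 on the minus strand. Cd2 lies at chr2:191412660-191412909 on the minus strand and Cd8a at chr4:104923866-104924115 on the plus strand. Capitals mark matches on either strand to GGAAGT, a core bound by ETS factors, or to TGTGGT, a core bound by RUNX factors.
Cd3g: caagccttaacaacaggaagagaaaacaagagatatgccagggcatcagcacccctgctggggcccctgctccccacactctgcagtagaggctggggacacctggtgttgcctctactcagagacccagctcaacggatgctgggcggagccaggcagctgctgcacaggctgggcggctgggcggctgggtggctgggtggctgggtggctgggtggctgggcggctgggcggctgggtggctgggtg
Cd3d: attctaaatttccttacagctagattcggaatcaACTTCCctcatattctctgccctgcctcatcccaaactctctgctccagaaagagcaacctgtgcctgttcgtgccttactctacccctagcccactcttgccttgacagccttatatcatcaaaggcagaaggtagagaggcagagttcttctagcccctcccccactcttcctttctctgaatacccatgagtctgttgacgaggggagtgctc
Cd3e: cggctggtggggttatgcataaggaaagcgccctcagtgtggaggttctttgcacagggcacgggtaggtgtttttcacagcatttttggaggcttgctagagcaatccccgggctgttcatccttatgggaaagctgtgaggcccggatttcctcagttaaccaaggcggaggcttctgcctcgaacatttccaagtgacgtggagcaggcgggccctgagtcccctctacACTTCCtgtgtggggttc
Cd2: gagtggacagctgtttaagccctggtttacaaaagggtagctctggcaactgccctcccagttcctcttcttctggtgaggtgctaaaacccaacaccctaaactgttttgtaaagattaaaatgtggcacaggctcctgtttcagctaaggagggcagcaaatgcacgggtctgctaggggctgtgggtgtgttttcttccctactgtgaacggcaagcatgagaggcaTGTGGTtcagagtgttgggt
Cd8a: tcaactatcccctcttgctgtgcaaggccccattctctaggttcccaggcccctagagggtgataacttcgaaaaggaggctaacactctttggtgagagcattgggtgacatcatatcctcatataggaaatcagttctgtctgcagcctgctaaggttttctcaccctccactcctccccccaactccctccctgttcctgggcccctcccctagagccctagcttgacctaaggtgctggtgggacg
Cd3d and Cd3e each held 1 match to GGAAGT, Cd2 held 1 match to TGTGGT, and the windows of Cd3g and Cd8a held neither. No match of one motif overlapped a match of the other in these 5 windows. Of the 8 genes with both a probe by name and a promoter entry, each with 1 window, 3 held GGAAGT, against 19.2% of the 33469 rat promoter windows of that length. TGTGGT was found in 2 of the 8 (14.5% of all windows), and the E box letters CANNTG in 6 (65.5% of all windows). Lck, with 2 annotated starts, is not counted here. These are counts of letters in a window and were not tied to any measurement here.

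On the array, which is annotated on the older rn4 assembly, the 3 CD3 probes lie within the same stretch of chromosome 8: Cd3g at chr8:47924376-47924435 on the minus strand, Cd3d at chr8:47936669-47936728 on the plus strand and Cd3e at chr8:47950313-47950372 on the minus strand. Cd8a is probed at chr4:104593483-104593542 (plus strand), Cd2 at chr2:196345785-196345844 (minus strand) and Zap70 at chr9:35714961-35715020 (plus strand). The other probes span longer genomic intervals: Cd4 at chr4:160989843-160990442, Cd5 at chr1:213216483-213217309 and Lat at chr1:185450886-185453574, all on the minus strand. The probe described as Lck spans chr5:148713169-148715276 on the minus strand. Exon and intron positions of the probes were not examined.

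All 10 probes were well above background in the rat channel on all 18 arrays, and none was saturated or marked as an outlier. The median Cy5 signal of an array was 61.5 to 84.3, over a local background of 31 to 37, and 53.3% to 63.5% of spots were well above background. Of 13 further T cell markers, 10 were on the array and all 10 were well above background on every array. The same held for 7 of 7 B cell, 8 of 8 monocyte, 9 of 10 NK and 7 of 8 platelet markers tested. Detection therefore does not show which cells the signal of the 9 genes came from. LFD replicate 6 and LFD replicate 2 stood apart: the median absolute deviation of their log2 ratios was 0.618 and 0.581, against 0.271 to 0.401 on the other arrays. They also held opposite ends of the first principal component, 91.5 and -90.5, which carried 26.3% of the variance. The lowest correlation between arrays over all probes was -0.497, and since the labels state the dyes, the direction of the ratios was kept. Arrays lay on 5 slides, each scanned once, and with diet in the model 89 of the 25237 probes tested (0.353%) differed between slides at an adjusted p under 0.05, none of them a probe of the 9 genes. Slide had an unadjusted p of 0.209 to 0.874 for the 9 genes and 0.0669 for Lck (limma).

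Among the genes of the receptor complex, Cd3d and Cd3g stayed close to the pool in every rat. Cd3d, the delta chain, had a lowest, median and highest log2 ratio of -0.50, -0.05 and 0.14 in HFD rats, -0.25, 0.06 and 0.19 in HPD rats, and -0.23, -0.10 and 0 in LFD rats. Cd3g, the gamma chain, ran from -0.39 through -0.11 to 0.30 in HFD rats, from -0.20 through 0.05 to 0.20 in HPD rats and from -0.36 through -0.06 to 0.14 in LFD rats. The 3 diets overlapped for both genes, and the lowest value of each belonged to HFD replicate 1. Cd3e, the epsilon chain, which pairs with both of the others in the assembled receptor, was spread more widely, from -0.45 through -0.21 to 0.25 in HFD rats, -0.56 through 0.04 to 0.30 in HPD rats and -1.44 through 0.18 to 0.34 in LFD rats. Its lowest value, in LFD replicate 6, lay far below the next LFD value of 0.06. On that array the pool channel of Cd3e was the highest of all arrays, at 3.749 log2 units above the array's 75th percentile, and the rat channel the lowest, at 2.331. Over the arrays the pool channel of Cd3e had an SD of 0.386 log2 units although it held the same RNA throughout, against 0.458 in the rat channel, while for Cd3d these SDs were 0.190 and 0.245.

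The co-receptors differed in how far they spread. Cd8a, the alpha chain of CD8, had log2 ratios of -0.41, -0.12 and 0.25 (lowest, median, highest) in HFD rats, of -0.59, -0.11 and 0.12 in HPD rats, and of -1.27, -0.18 and 0.85 in LFD rats. The LFD rats took both ends of the 18 values, LFD replicate 1 the highest and LFD replicate 6 the lowest, and their SD was 0.754, against 0.271 in HFD rats and 0.270 in HPD rats. Cd4 ranged from -0.55 through -0.03 to 0.04 in HFD rats, from -0.43 through -0.12 to 0.37 in HPD rats and from -0.91 through 0.09 to 0.26 in LFD rats. Its probe was the dimmest of those followed, with a Cy5 signal of 135 to 295 over the arrays, against 6190 to 15300 for Cd8a. Cd4 minus Cd8a, a difference of log2 ratios against the pool, averaged -0.0050 ± 0.426 in HFD rats, 0.029 ± 0.197 in HPD rats and -0.055 ± 0.744 in LFD rats (SD, n = 6 each). Two-sided exact permutation tests over the 924 splits gave p = 0.918 for HFD against LFD, 0.855 for HPD against LFD and 0.855 for HPD against HFD, adjusted p = 0.918 for each of the 3, where the smallest p the design allows is 0.00216.

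The surface molecules Cd2 and Cd5 were also widest in LFD rats. Cd2 had log2 ratios of -0.58, -0.21 and 0.02 (lowest, median, highest) in HFD rats, -1.11, -0.19 and -0.01 in HPD rats, and -1.33, -0.27 and 0.47 in LFD rats. Cd5 had -0.65, -0.13 and 0.17 in HFD rats, -0.32, -0.04 and 0.32 in HPD rats, and -0.58, 0.21 and 0.70 in LFD rats. LFD replicates 1 and 2, both on slide 1, held the 2 highest values of Cd2, of Cd5 and of Cd8a. The lowest Cd2 values outside LFD replicate 6 came from HPD replicate 7, the array with conflicting labels.

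Of the intracellular genes, Lat and Zap70 varied least. Lat, the adaptor, ran from -0.36 through -0.01 to 0.21 in HFD rats, from -0.11 through 0.08 to 0.30 in HPD rats and from -0.09 through 0.10 to 0.24 in LFD rats. Zap70, the kinase that phosphorylates it, ran from -0.34 through -0.09 to 0.06 in HFD rats, from -0.23 through -0.14 to 0.20 in HPD rats and from -0.27 through 0.03 to 0.29 in LFD rats. Zap70 was highest of all 18 arrays in LFD replicate 6, the array on which Cd3e, Cd2, Cd4 and Cd8a were lowest. The probe described as Lck was lowest there too: it ran from -0.39 through -0.13 to 0 in HFD rats, from -0.45 through -0.19 to 0.03 in HPD rats and from -1.39 through 0.01 to 0.67 in LFD rats. Over all 18 arrays the SD of the log2 ratio was 0.169 for Lat, 0.184 for Zap70, 0.190 for Cd3d and 0.197 for Cd3g, at the 9.52nd to 15.2nd percentile of all probes tested. It was 0.325 for Cd4, 0.380 for Cd5, 0.437 for Cd2, 0.446 for Cd3e and 0.459 for Cd8a, and the median over all probes was 0.361. The Cy5 signal was 76300 to 134000 for Cd3d, 69200 to 111000 for Cd3g, 24200 to 49400 for Zap70 and 8630 to 20700 for Lat. It was lower for the others: 6190 to 15300 for Cd8a, 1490 to 7350 for Cd5, Cd3e and Cd2, and 135 to 295 for Cd4. The part of signal level in these SDs was not tested.

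**Figure D1:**
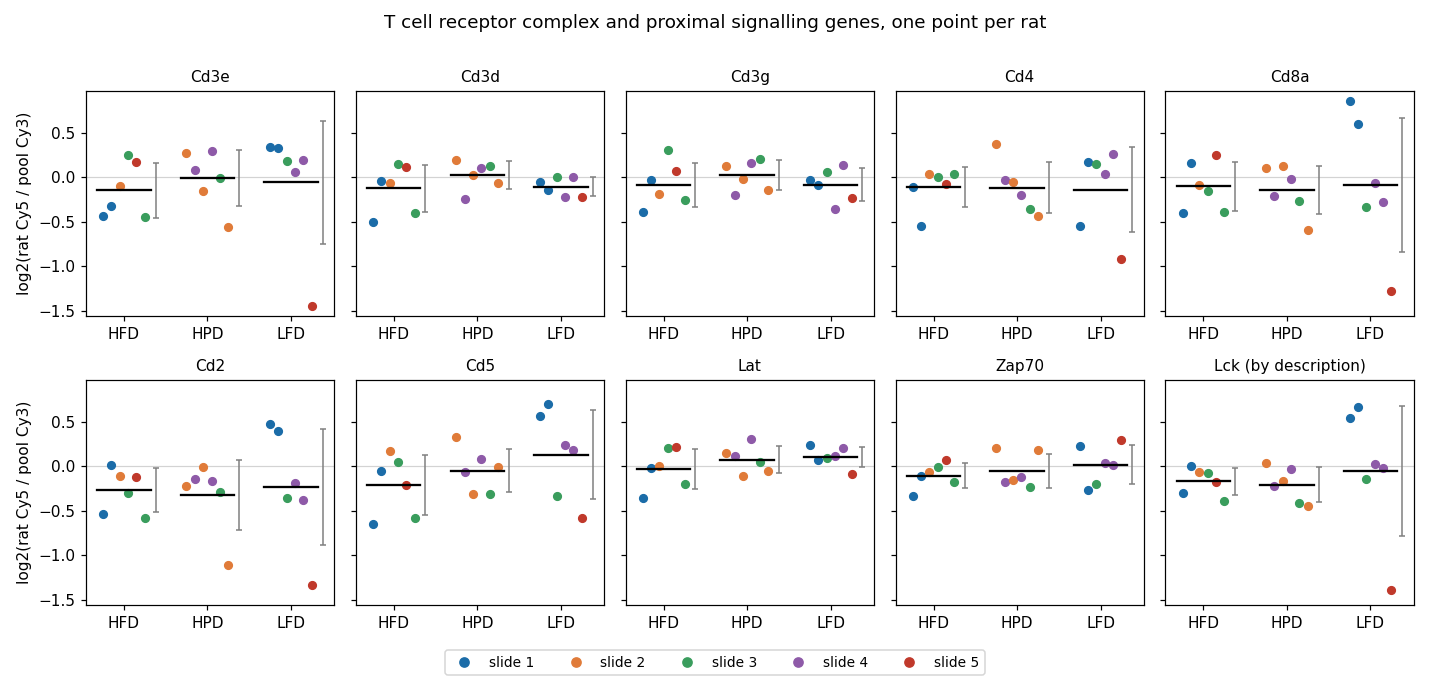
Log2 ratio of the rat over the pool for the 9 genes and the probe described as Lck, by diet, with HFD and HPD left of LFD; points are single rats coloured by slide, black bars are means and grey bars are ± 1 SD (n = 6). Cd3d, Cd3g, Lat and Zap70 lie between -0.50 and 0.30, while Cd3e, Cd2, Cd8a and Lck lie at -1.44, -1.33, -1.27 and -1.39 in the LFD rat on slide 5.

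HFD against LFD asks what the high-fat diet did at equal energy. None of the 9 genes passed the test, and none had an unadjusted p under 0.05 (limma over 18 arrays, Benjamini-Hochberg over all probes). Of the 25237 probes tested 0 (0%) were called, and 507 (2.01%) had an unadjusted p under 0.05. The log2 difference was below 0 for 7 of the 9 genes, against 48.5% of all probes, with a median of -0.038 over the genes and 0.0061 over all probes. Cd5 had the lowest p, with a mean log2 ratio of -0.21 in HFD rats and 0.13 in LFD rats, a difference of -0.34 ± 0.21 (SE, 95% interval -0.78 to 0.10, limma adjusted p = 1). That Cd5 difference was -0.98 on slide 1, 0.063 on slide 3 and 0.37 on slide 5, and -0.020 without slide 1. Lat differed by -0.13 (interval -0.37 to 0.11) and Zap70 by -0.13 (interval -0.38 to 0.13). For the CD3 chains the interval was -0.27 to 0.24 for Cd3d and -0.27 to 0.27 for Cd3g, but -0.64 to 0.46 for Cd3e. Cd8a, Cd2 and Cd4 differed by -0.017, -0.038 and 0.033, with intervals that reach at least 0.38 to either side. The probe described as Lck differed by -0.12 (interval -0.64 to 0.40).

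The HFD and LFD arrays shared 3 slides, and the mean difference over the 9 genes was not the same in each. On slide 1, with 2 HFD and 2 LFD rats, it was -0.472 and all 9 genes were lower in HFD rats, with Cd8a at -0.84 and Cd3e at -0.71 beside the Cd5 value above. It was -0.057 on slide 3 (2 HFD and 1 LFD rat) and 0.696 on slide 5 (1 rat of each diet), where LFD replicate 6 lies. Over all slides it was -0.081. Without slide 1 it turned to 0.115, and without LFD replicates 2 and 6, a choice made after seeing the data, it was -0.168, with all 9 genes below 0 and Cd5 at -0.38, Cd3e at -0.34 and Lat at -0.19, adjusted p 0.902 for each of these 3. These values are given by slide because diet and slide are partly crossed. HFD replicates 1 and 6, whose arrays were the most alike of all pairs (r = 0.61, the next pair 0.517), were both low, with a mean over the 9 gene-centred genes of -0.331 and -0.251. In the same 2 rats the other T cell markers averaged -0.417 and -0.324, monocyte markers 1.083 and 0.879, the highest of all 18 rats, platelet markers 1.276 and 1.024, red cell markers 1.065 and 0.689, neutrophil markers 0.609 and 0.616 and B cell markers 0.513 and 0.318. The part of these markers in the low values was not tested. With those 2 arrays averaged as 1 sample the difference was -0.032.

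HPD against LFD asks what replacing carbohydrate by protein did. No gene of the 9 passed the test or had an unadjusted p under 0.05. Over all 25237 probes 0 (0%) were called, and 717 (2.84%) had an unadjusted p under 0.05. Of the 9 genes 5 were lower and 4 higher in HPD rats, where 46.1% of all probes were lower. Cd3d averaged 0.023 in HPD rats and -0.11 in LFD rats, a difference of 0.13 (interval -0.13 to 0.39, limma adjusted p = 1). Cd3g differed by 0.11 (interval -0.16 to 0.37) and Cd5 by -0.18 (interval -0.62 to 0.26), which turned to 0.073 without slide 1. The other 6 genes differed by -0.091 to 0.048. Within slides the mean over the 9 genes differed by -0.039 on slide 3 (1 rat of each diet) and by -0.022 on slide 4 (2 of each), against -0.013 over all arrays. Without HPD replicate 7 it was 0.036, without slide 1 it was 0.119 and without LFD replicates 2 and 6 it was -0.10.

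HPD against HFD sets the diets that differ from LFD beside each other. Again no gene of the 9 passed the test or had an unadjusted p under 0.05, beside 0 (0%) of all probes called and 762 (3.02%) with an unadjusted p under 0.05. Of the 9 genes 6 were higher and 3 lower in HPD rats, where 52.3% of all probes were higher. Cd3d differed by 0.15 (interval -0.11 to 0.40), Cd3g by 0.10 (interval -0.16 to 0.37), Cd5 by 0.16 (interval -0.28 to 0.61) and Lat by 0.10 (interval -0.14 to 0.34), all with an adjusted p of 0.995 by limma. On both slides that held HPD and HFD rats Cd5 was lower in HPD rats, by -0.17 on slide 2 and -0.048 on slide 3, and with slide as a fixed block its difference was 0.0096. The mean over the 9 genes was 0.068 higher in HPD rats, and it was 0.117 higher without HPD replicate 7, 0.011 without HFD replicate 1 and 0.0036 without slide 1. On slide 2, with 3 HPD rats and 1 HFD rat, it was -0.028, and on slide 3, with 1 HPD and 2 HFD rats, 0.018. A test of any difference among the 3 diets called 0 (0%) of all probes, and 581 (2.3%) had an unadjusted p under 0.05, none of them a probe of the 9 genes. The 3 comparisons share their samples in pairs, so their values are not independent. Groups did not overlap for 0 of the 9 genes in any comparison, and for 0.0832%, 0.0792% and 0.242% of all probes in the 3 comparisons as given above.

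**Figure D2:**
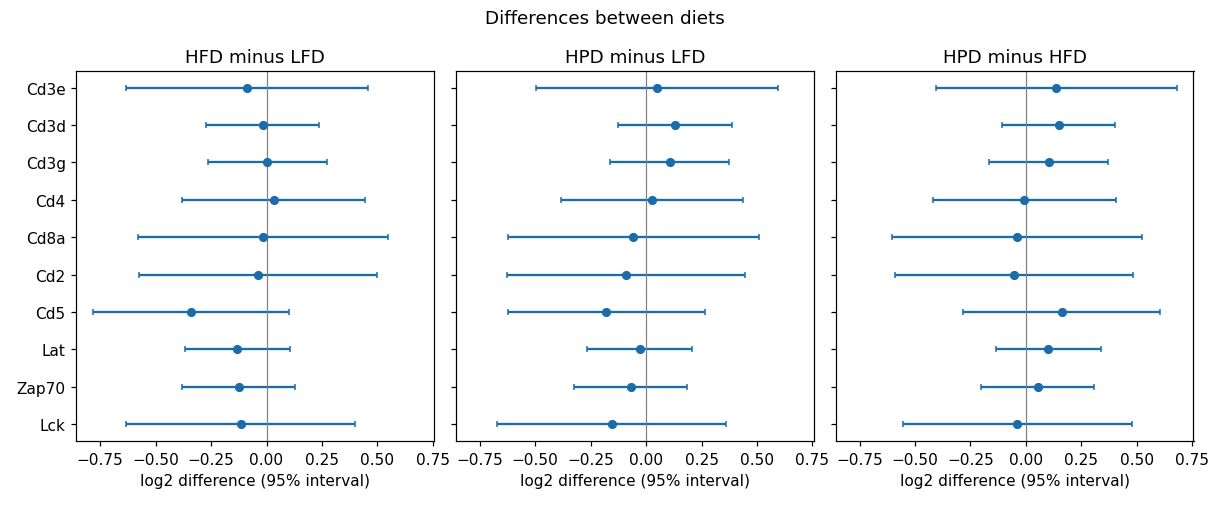
Difference in mean log2 ratio between diets for each gene, with HFD minus LFD, HPD minus LFD and HPD minus HFD from left to right; points are limma estimates and bars 95% intervals (6 rats per diet). Every interval spans 0, and those of Cd3d, Cd3g, Lat and Zap70 are narrower than those of Cd3e, Cd2, Cd8a and Lck.

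Across the 18 rats Cd2 with Cd8a and Cd3d with Cd3g were the pairs that moved most closely together. The 9 genes give 36 pairs, and each correlation was tested with 100000 permutations and adjusted over the pairs; the points of a pair share the array and its pool channel. Cd2 and Cd8a had r = 0.947 and Spearman's rho = 0.928, and Cd3d and Cd3g had r = 0.891 and rho = 0.930. All 4 permutation p were 1e-05, the smallest these permutations can give (adjusted p = 0.00018). Leaving out the 2 rats farthest from the median of Cd2 gave r = 0.946, and the same for Cd3d gave 0.885. With slide means removed the values were 0.942 for Cd2 with Cd8a and 0.947 for Cd3d with Cd3g, and without LFD replicates 2 and 6 they were 0.895 and 0.886.

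Between the pairs the relation was weaker. Cd3d had r = 0.312 with Cd8a and 0.264 with Cd2 (permutation adjusted p = 0.353 and 0.366), and 0.612 and 0.564 with slide means removed. Cd3e, although a partner chain of the other CD3 proteins, had r = 0.788 with Cd2 and 0.770 with Cd8a, beside 0.501 with Cd3d and 0.540 with Cd3g. That order rests on LFD replicates 2 and 6: without them Cd3e had r = 0.597 with Cd2 and 0.524 with Cd8a, beside 0.604 with Cd3d and 0.617 with Cd3g. Lat was tied to Cd3e (r = 0.690, rho = 0.843, and r = 0.877 without those arrays). It had r = 0.702 with Cd3d, 0.662 with Cd3g and 0.653 with Cd5, and without those arrays 0.696, 0.648 and 0.719. By rho these were 0.536, 0.614 and 0.614, and Cd3d did not pass (permutation adjusted p = 0.0763). Without the 2 rats farthest from the median of Cd3d, Cd3g or Cd5, r was 0.366, 0.525 and 0.656. Zap70 had no correlation past the adjusted threshold with any other gene, its r running from -0.356 with Cd4 to 0.345 with Lat, and without LFD replicates 2 and 6 its r with Cd5 was 0.795, against 0.255 over all 18 arrays. Cd4 and Cd8a had r = 0.293 (permutation p = 0.236, adjusted p = 0.366), which was 0.726 without slide 1 and turned to -0.289 without LFD replicates 2 and 6. Of the 36 pairs 13 passed an adjusted p of 0.05 by Pearson's r and 8 by Spearman's rho, and the median r was 0.346. It was 0.566 with slide means removed, 0.470 without slide 1 and 0.443 without LFD replicates 2 and 6.

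**Figure D3:**
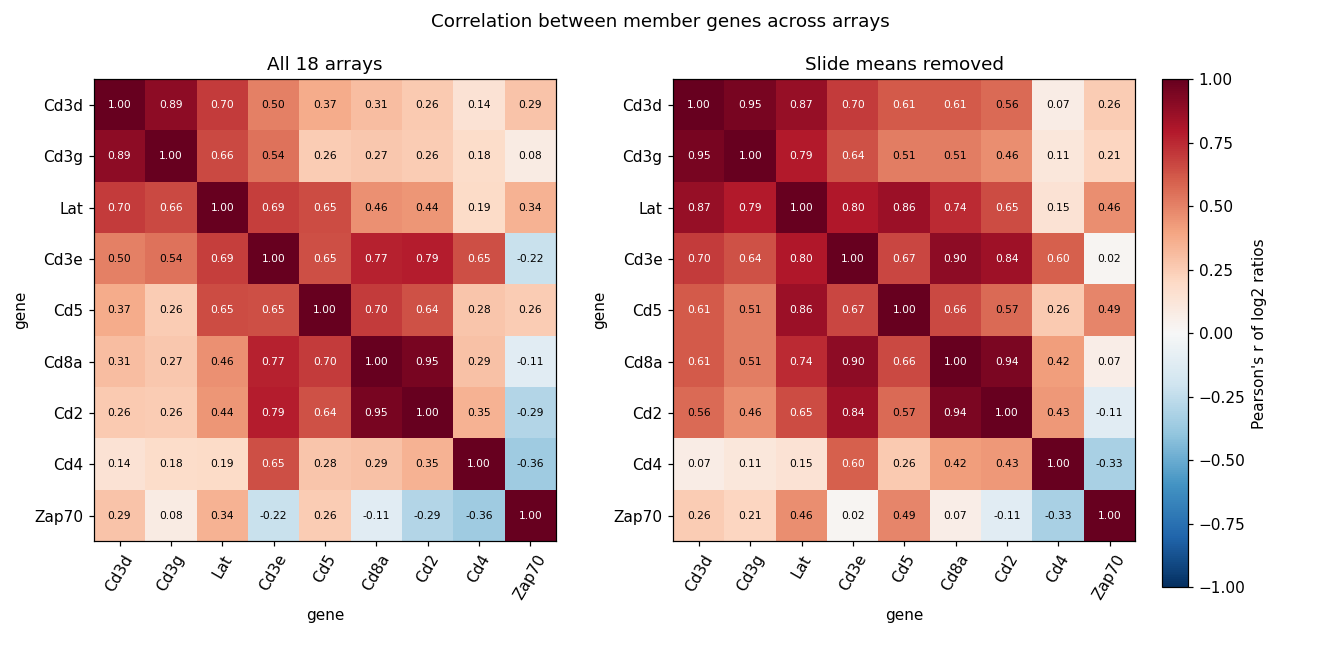
Pearson's r between the log2 ratios of the 9 genes over 18 arrays (left) and after each slide's mean was subtracted (right), with colour from -1 in blue to 1 in red. Cd3d with Cd3g and Cd2 with Cd8a are the darkest pairs on the left, at 0.89 and 0.95, and Zap70 is pale against most genes.

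**Figure D4:**
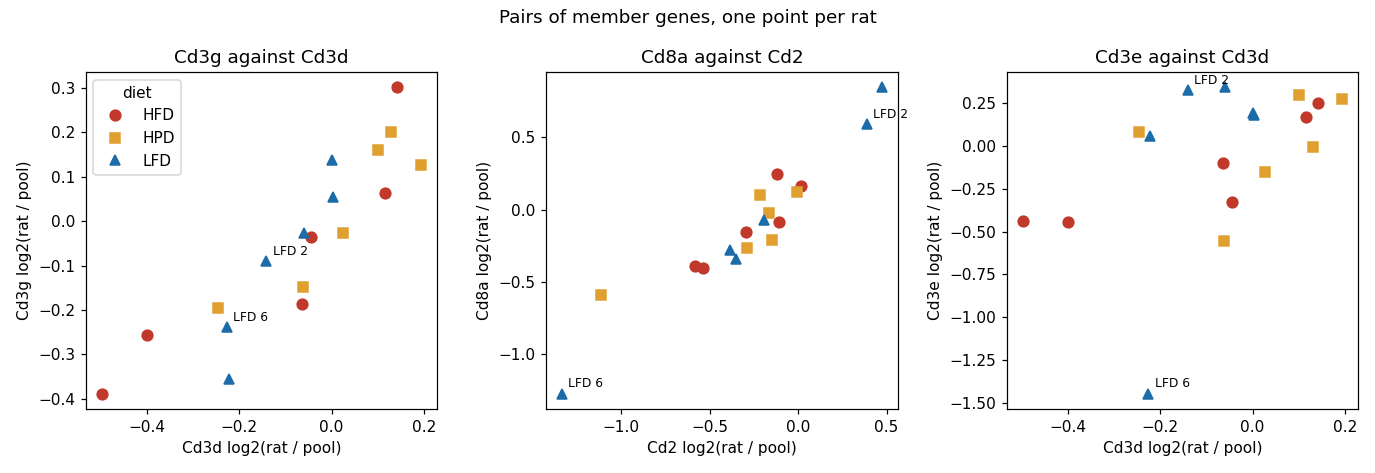
Log2 ratio of one gene against another, 1 point per rat, with colour and shape for the diet and LFD replicates 2 and 6 named; Cd3g against Cd3d, Cd8a against Cd2 and Cd3e against Cd3d from left to right. Both first panels form a narrow band in all diets, and in the last LFD replicate 6 lies at -1.44 for Cd3e with -0.23 for Cd3d.

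The genes whose log2 ratio followed the mean of the 9 genes most closely were taken from 10900 other named genes, as a description over 18 arrays. Skap1, an adaptor that links the T cell receptor to integrin activation, had r = 0.922, and Il27ra, a chain of the receptor for interleukin 27, 0.912. Imp4, a protein of ribosomal RNA processing, had 0.909, Nxn, a thioredoxin family protein, 0.907, Ifi44l, an interferon-induced gene, 0.905, and Pde4dip, an anchor of phosphodiesterases, 0.903. Alkbh4, a demethylase of the AlkB family, and Zfp692, a zinc finger protein, both had 0.889. With slide means removed these 8 values were 0.901 to 0.959, and without slide 1 they were 0.878 to 0.945. All of these values keep LFD replicate 6, which had the lowest mean of the 9 genes, -0.562. Of the 10900 genes 90 had r above 0.8.

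The wider pathway was described with 48 further genes of T cell receptor signalling, of which 42 were on the array and 41 were tested. None passed the test in any comparison. The differences below are not adjusted for slide. With diet in the model, slide had an unadjusted limma p of 0.00323 for Fyn and 0.01 for Wipf1. For the other genes named from this list it was 0.126 to 0.913. Further genes of the list, not named here, also had a slide p under 0.05, down to 0.000986 (limma). All of these, with Fyn and Wipf1, are among the genes counted as higher in HFD rats than in LFD rats. The part of slide in that count was not tested. The mean of the list per rat, centred by gene, was highest in LFD replicates 2 and 1 of slide 1 (0.302 and 0.263). It was lowest in LFD replicate 6 of slide 5 (-0.426). In HFD against LFD 31 were higher and 10 lower in HFD rats, where 48.5% of all probes were lower. The median log2 difference was 0.056, and 0 had an unadjusted p under 0.05. The genes were measured on the same arrays, so their directions are not independent. Grb2, an adaptor recruited to LAT, averaged 0.11 in HFD rats and -0.13 in LFD rats (difference 0.24, limma adjusted p = 1). Cblb, a ubiquitin ligase that restrains receptor signalling, differed by 0.21, and Wipf1, a partner of the actin regulator WASP, by 0.18. Sit1, an inhibitory transmembrane adaptor, differed by -0.18, as did Grap2, the adaptor GADS that ties SLP-76 to LAT, by -0.18 and Cd8b, the beta chain of CD8, by -0.18.

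For HPD against LFD 19 of the 41 were higher and 22 lower in HPD rats, with a median of -0.0072, where 46.1% of all probes were lower. Fyn, a kinase of the same family as LCK, averaged -0.17 in HPD rats and 0.068 in LFD rats (difference -0.23, limma adjusted p = 1). Grb2 differed by -0.15. The adaptor Nck1 differed by 0.17, Nfatc3, a calcium-regulated transcription factor, by 0.15, and Sos1, which activates RAS, by 0.099. In HPD against HFD 13 were higher and 28 lower, with a median of -0.046, where 52.3% of all probes were higher. One of the 41 had an unadjusted p under 0.05, Grb2, at -0.28 in HPD rats and 0.11 in HFD rats (difference -0.39 ± 0.15 SE, limma adjusted p = 0.995). Cblb differed by -0.23 and Fyn by -0.26, while Cd8b differed by 0.38, Sit1 by 0.26 and Trat1, an adaptor that stabilises the receptor complex, by 0.22.

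In bulk mononuclear cells, fewer cells of a type and less RNA per cell cannot be told apart, so markers of other blood cells are set beside the 9 genes. Of all probes 48.5% were lower in HFD than in LFD rats and 46.1% lower in HPD than in LFD rats. In HPD against HFD 52.3% of all probes were higher in HPD rats. Markers of a list were measured on the same arrays, so their directions are not independent. The other T cell markers moved little, with medians over 10 genes of -0.039 for HFD against LFD, 0.0035 for HPD against LFD and 0.095 for HPD against HFD. Monocyte markers were lower in HPD rats for 8 of 8 genes tested, by a median of -0.28 against LFD and -0.41 against HFD, and 7 of 8 were higher in HFD rats than in LFD rats. Their mean level per rat, centred by gene, ran from -0.28 to 1.08 in HFD rats, -1.29 to 0.66 in HPD rats and -0.40 to 0.47 in LFD rats. NK and cytotoxic markers were lower in HPD rats for 9 of 10 genes, by medians of -0.15 against LFD and -0.26 against HFD, and 8 of 10 were higher in HFD rats than in LFD rats (median 0.077). Markers of red cell precursors were lower in HPD rats for 9 of 9 (medians -0.78 against LFD and -0.74 against HFD) and platelet markers for 8 of 8 (medians -0.66 and -0.32). No HPD rat lay on slide 1, where red cell means per rat were 1.02 to 1.18 and NK means 0.11 to 0.67. On slide 4 red cell means were -0.78 and -0.27 in HPD rats and -0.47 and -0.84 in LFD rats. On slide 3 they were -1.11 in the HPD rat, 1.19 in the LFD rat and -1.14 and 0.69 in HFD rats. On slide 2 they were -0.85 to 0.08 in HPD rats and 0.47 in the HFD rat. The part of slide in these differences was not tested. In HFD against LFD platelet markers were lower in HFD rats for 8 of 8 (median -0.23), and red cell markers were higher for 5 and lower for 4 (median 0.00047). B cell markers differed by medians of 0.046 for HFD against LFD, 0.065 for HPD against LFD and -0.047 for HPD against HFD. Neutrophil markers, with 5 of 8 tested, differed by 0.21, -0.16 and 0.094 in the same order. No marker of any list passed the test, and the part of these cells in the values of the 9 genes was not tested.

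**Figure D5:**
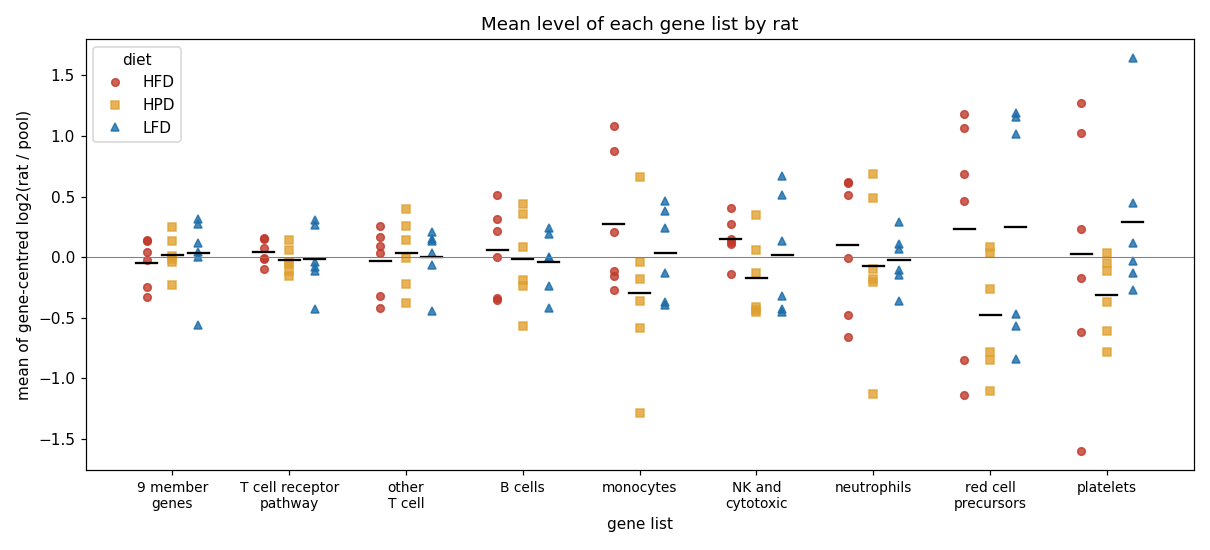
Mean of the gene-centred log2 ratios of each gene list in each rat, with HFD, HPD and LFD side by side and black bars for the diet means. The 9 genes run from -0.56 to 0.31, and the pathway, other T cell, B cell and NK lists also stay within 1 of 0 in every rat, while monocyte, neutrophil, red cell and platelet lists reach beyond 1 or -1 in single rats.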

How the data were processed

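Peripheral blood mononuclear cells were measured on 18 Agilent two-colour arrays, 6 per diet. Per the file headers, the deposited scanner files hold processed intensity signals of both channels, background-subtracted and dye-normalized by Agilent Feature Extraction, whose version is 10.5.1.1 per the submitters' processing notes, with flags and detection calls. The authors' deposited table holds log2 values for 20260 probes with every column median at 8.399; their centring is unknown, and it served as an alternative (centred r = 0.886, slope 0.696 against the ratios here). From the signals, log2 Cy5 over Cy3 was taken, control and outlier-marked spots were left out, spots of a probe averaged, and 25237 of 41012 probes kept that were well above background in Cy5 on at least 5 arrays. Limma 3.58.1 in R 4.3.3 was fitted over 18 arrays and 3 diets, with Benjamini-Hochberg adjustment at 0.05. On simulated data for HFD against LFD it recovered 8% of log2 changes of 0.5 and 53% of log2 changes of 1, with 5 false calls. True changes of these sizes could therefore go uncalled. Symbols of 20774 probes came from RefSeq. The members and lists (pathway, T cell, B cell, monocyte, NK, neutrophil, red cell, platelet) were chosen with earlier results of these data known. Named genes were the members, the pathway genes with the 3 smallest p in each direction (1 of them is not reported here), and the 8 genes most like the members. Each array is 1 rat, and the number of arrays limits precision. Rats were not treated as paired by replicate number. Slide, scaling, filter, background, label and leave-one-out alternatives were run.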

Additional observations from a re-analysis of the deposited data

Results flagged for a closer look

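In 3 of 30 sets of 6 rats (each of the 9 genes and the Lck probe in a diet), 1 rat's gap to its nearest neighbour was large for the set's range; chance alone does this in about 1 in 20 sets. Cd3e was -1.44 in LFD replicate 6, with the next LFD rat at 0.06. Without that rat the Cd3e log2 difference was -0.37 for HFD against LFD and -0.23 for HPD against LFD. Cd2 was -1.11 in HPD replicate 7, the array with conflicting labels, with the next HPD rat at -0.29. Cd4 was -0.55 in HFD replicate 2, with the next HFD rat at -0.11. The cause of these values was not tested.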

How the results depend on the processing

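None of the 9 genes was called under any of 18 other settings or with any of the 18 arrays left out. Over these alternatives 105 single-gene differences had the opposite sign to the value reported, none of them called; the filters on dim and marked spots and the averaging of probes could not move these genes, each with 1 probe detected on all arrays. The mean log2 difference over the 9 genes ran from -0.168 to 0.115 for HFD against LFD, from -0.0505 to 0.119 for HPD against LFD and from 0.00363 to 0.198 for HPD against HFD. With 1 array left out at a time it ran from -0.199 to -0.0242, from -0.132 to 0.0432 and from 0.0112 to 0.117 in the same order. The HPD against LFD mean turned above 0 without HPD replicate 7 (0.036) and without LFD replicate 1 (0.0432), 2 (0.0361) or 5 (0.00442), with the Cy5 signal alone (0.0201), with the authors' deposited table (0.0301) and with the array of conflicting labels counted as HFD (0.036), and both means against LFD did without slide 1. With the Lck probe added it was -0.0842, -0.0272 and 0.057. For HPD against LFD, array quality weights called 2 probes, those of Fscn3 and Rarres2, both lower in HPD rats, and leaving out 1 array called 0 to 1, Rarres2 without LFD replicate 2; these genes were named after their values were seen. The cause was not tested. The median correlation between the genes was 0.566 with slide means removed, 0.47 without slide 1 and 0.443 without LFD replicates 2 and 6, against 0.346. With the replicate number as a block the means were -0.0806, -0.0434 and 0.0372, and 0 probes were called. Same-numbered rats correlated from -0.317 to 0.228 in their deviations. These values cannot exclude a pairing with a small effect, and none was assumed in the main fit. The choice of LFD replicates 2 and 6 to leave out, and of adding Lck, was made after seeing the data. All 9 genes were well above background on 18 arrays, with Cd4 the dimmest. The intervals rest on 6 rats per diet, and the part of signal level in their width was not tested.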
